A study of Mus musculus with 5 samples.

Results

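Of the 32285 genes in the count matrices, 25 are claudins, and the 9 described here (Cldn1, Cldn2, Cldn3, Cldn4, Cldn7, Cldn8, Cldn10, Cldn16 and Cldn19) were taken by symbol as the claudins of the kidney tubule. The list was made with earlier results of these data known. In GRCm38.p6 (RefSeq) Cldn1 lies at chr16:26356645-26371839 and Cldn16 at chr16:26463135-26482765, Cldn2 at chrX:139800808-139811386, Cldn7 at chr11:69964779-69967886, Cldn8 at chr16:88560826-88563183, Cldn10 at chr14:118787871-118874525 and Cldn19 at chr4:119255441-119262438. Cldn3 and Cldn4 lie together on chromosome 5. Each was followed by nephron segment, in the epithelial cluster highest in the injury marker Havcr1, and over control, AKI and CKD kidneys.

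Claudins are membrane proteins of the tight junction, the seal between neighbouring epithelial cells. Some form pores through which ions and water pass between cells, and others form barriers, so the set that a segment makes sets what can cross its wall. The leaky proximal tubule (PT) takes back most of the filtered salt and water, the thick ascending limb (TAL) takes back calcium and magnesium between its cells, and the distal convoluted tubule (DCT), connecting tubule (CNT) and collecting duct are tighter.

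The study measured single-cell transcriptomes of whole mouse kidneys in acute kidney injury (AKI) and in the chronic disease (CKD) that follows it. All mice were Wild-Type, male C57BL/6, 8 to 10 weeks old. The 2 AKI libraries came from kidneys taken at week 2, after intraperitoneal aristolochic acid I (AAI, a plant toxin that damages the proximal tubule) at 3 mg/kg every 3 days. The 2 CKD libraries came from kidneys taken at week 4, after the same 2 weeks of AAI and 2 weeks without it, and the single control library came from vehicle-treated mice at week 0. The labels do not say whether the 2 libraries of a group came from separate animals, so every p-value measures only the spread between libraries, and the control, which has no replicate, was assumed to vary like the others.

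The files held 10873 to 22034 barcodes and 90028670 to 121316769 UMIs (unique molecular identifiers, 1 per captured transcript) per library. Of these, 9168 to 19314 barcodes passed the study's stated limits on genes and mitochondrial UMIs, and 53718 cells in all remained after doublets were removed. Clusters were named from marker genes as "X-like", with all claudins kept out of the clustering, and 7677 epithelial cells fell into 11 named classes. Other clusters matched no class and entered no test, so the levels of the named classes do not cover them. Among these were clusters of 793 and 585 cells nearest to PT, and of 400 cells nearest to pendrin-positive intercalated cells. In the control, 132 of 9168 cells carried a barcode also found in CKD 2, and 121 of them were deeper there. CKD 1 gave all 117 cells of 1 collecting duct principal cell-like (CD PC-like) cluster, 73 of the 74 cells of 1 TAL-like cluster and 64 of the 65 cells of 1 pendrin-positive intercalated cell-like (IC-like) cluster. DCT-like cells also carried Umod, a TAL gene, at 29.7 to 83.9 UMIs per 10000, while their Slc12a3, which encodes the DCT sodium chloride cotransporter, stood at 35.8 to 90.6. The cluster that was highest in the injury marker Havcr1 (1.14 to 2.06 UMIs per 10000 in the AKI and CKD libraries) had no Havcr1 UMI among the 118074 UMIs of its 22 control cells, which allows up to 0.254. The 7 injury markers were Havcr1, Lcn2, Krt20, Krt8, Krt18, Vcam1 and Sox9. In CD PC-like cells they summed to 20.95 in the control already, so the sum does not rank classes by injury. In the Havcr1-highest cluster the sum (12.1 to 34.2) was below that of CD PC-like cells in all 5 libraries. Its summed thin limb markers (up to 56.3) exceeded its own injury markers in 4 of 5. The cluster is therefore called by its leading gene, the Slpi-led cluster. No class matched the last, S3 part of the proximal tubule.

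Intervals on UMI counts are exact Poisson intervals and, like the limits that a count of 0 allows (3 counts), cover counting error only. Levels are given as UMIs per 10000 UMIs of a class. Epithelial RNA released during dissociation gives a few UMIs in every cell, so levels are set beside those of T lymphocyte-like cells, which should make no tubular claudin. Pooled over libraries, T lymphocyte-like cells held between 0.00720 (Cldn1) and 0.0707 (Cldn4) UMIs per 10000 of these genes.

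**Figure D1:**
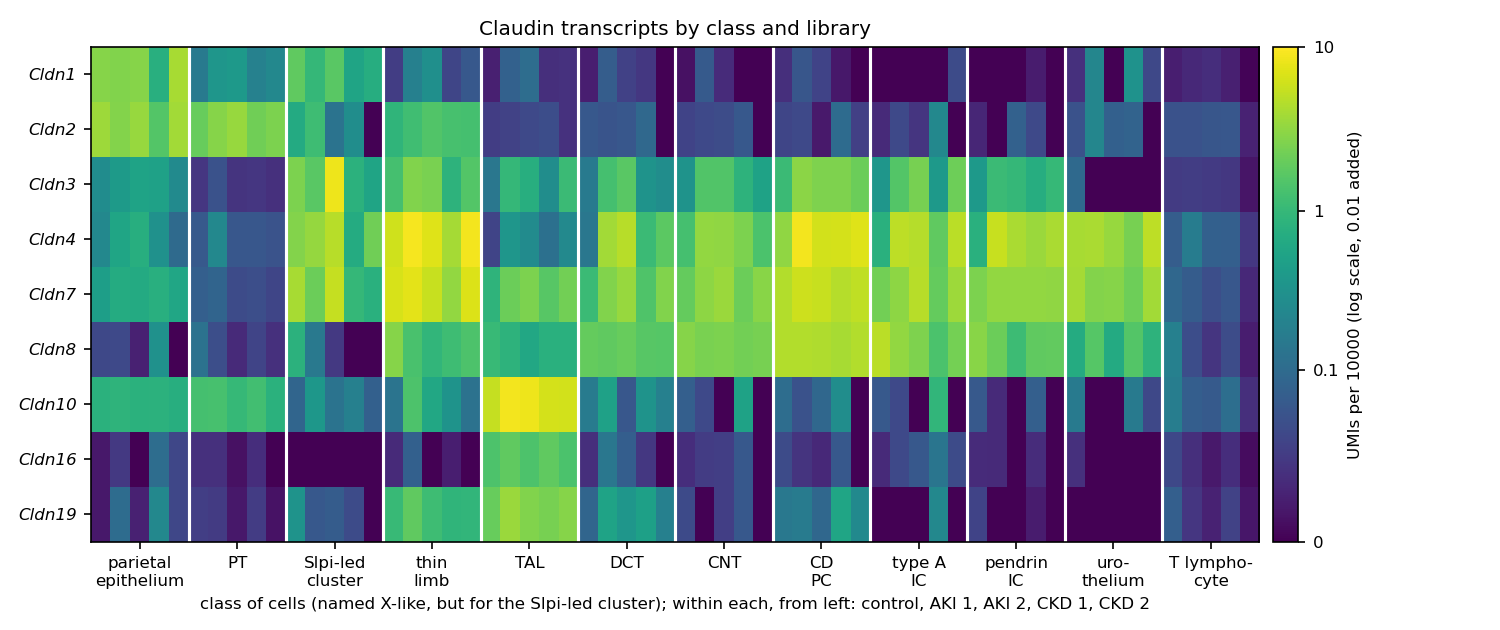
Levels of the 9 claudins (rows) in 12 classes, with 5 columns per class for control, AKI 1, AKI 2, CKD 1 and CKD 2, coloured by UMIs per 10000 on a log scale after adding 0.01. Cldn16 is bright only in the 5 TAL columns, Cldn2 in parietal, PT and thin limb columns, and Cldn4 in DCT-like cells is dark in the control (0.146) and bright in AKI 2 (4.78).

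Cldn2, the cation and water pore of the proximal tubule, stood in PT-like cells (2115 in all, 211 to 771 per library) at 2.02 UMIs per 10000 in the control, 2.86 and 3.41 in AKI, and 2.25 and 2.58 in CKD. The order of its levels was parietal epithelium-like (3.19 pooled), PT-like (2.67) and thin limb-like cells (1.23). The libraries of parietal epithelium-like and PT-like cells overlapped, and those of PT-like and thin limb-like cells did not. All distal classes lay at 0.101 or less, apart from type A IC-like cells of CKD 1 (0.242, 7 UMIs). In PT-like cells both AKI values lay above the control and above both CKD values, but neither step passed the edgeR test (log2 fold change 0.60 ± 0.24 SE, adjusted p = 0.105 for AKI against control, and −0.36 ± 0.19, adjusted p = 0.408 for CKD against AKI).

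Cldn10 encodes 2 main splice forms, an anion pore of the proximal tubule and a cation pore of the TAL, and the 3′ end counts used here do not tell them apart. As the mean of the 5 libraries it was highest in TAL-like cells (7.05), then in PT-like (1.14) and parietal epithelium-like cells (0.817). The TAL values were clear of the PT values in every library, and PT and parietal values overlapped. PT-like cells held 1.30 in the control, 1.33 and 1.01 in AKI, and 1.24 and 0.821 in CKD. These ranges overlapped, and the differences were −0.20 ± 0.27 (SE, log2) for AKI against control and −0.13 ± 0.22 for CKD against AKI.

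Cldn1, a barrier claudin, was highest in parietal epithelium-like cells, which line Bowman's capsule, at 2.87 in the control, 2.73 and 2.84 in AKI, and 0.778 and 3.99 in CKD. CKD 1 was the low library there, and it was also the library whose summed parietal markers were lowest (5.18, against 15.8 to 20.5 elsewhere). In CKD 1 thin limb-like cells held more of the parietal markers (5.70). The parietal epithelium-like cells of CKD 1 also held summed TAL markers at 10.8 and CD PC markers at 5.82. The class name is therefore least secure in that library. The Slpi-led cluster followed at 1.03 pooled, overlapping the parietal range and clear of PT-like cells, which ranged from 0.159 to 0.408.

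Cldn16 and Cldn19 form the paracellular route for calcium and magnesium in the TAL, and loss of either gene in people causes renal magnesium wasting. Cldn16 was the most segment-restricted of the 9: TAL-like cells (1203 in all, 73 to 503 per library) held 1.44 in the control, 1.84 and 1.46 in AKI, and 1.84 and 1.42 in CKD, while every other epithelial class was at 0.144 or less in each library. The groups overlapped, with log2 differences of 0.11 ± 0.26 (SE) for AKI against control and 0.03 ± 0.22 for CKD against AKI. The Slpi-led cluster held no Cldn16 UMI in any library, which allows up to 0.0109 over its 249 cells.

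Cldn19 was highest in TAL-like cells, at 1.97 in the control, 3.56 and 2.72 in AKI, and 2.44 and 2.87 in CKD. Thin limb-like cells came next, at 0.897 to 1.84, below every TAL library, and then DCT-like cells, at 0.0847 to 0.541. The TAL control lay below the other 4 libraries, but AKI against control did not pass (0.58 ± 0.26, edgeR adjusted p = 0.179). It passed with doublets kept (0.83, adjusted p = 0.0225), at 15% mitochondrial UMIs (1.92, 0.0127) and at the coarser clustering (0.85, 0.0442). Cldn10 in TAL-like cells read 5.44 in the control, 8.79 and 8.30 in AKI, and 6.45 and 6.27 in CKD. Its AKI values were the highest pair, and that difference also missed the threshold (0.56 ± 0.28, adjusted p = 0.226).

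Cldn10b and the Cldn16 with Cldn19 pair are known to sit in separate cell-to-cell contacts of the TAL, so the counts were asked whether the transcripts shared cells. Each TAL-like cell was thinned to 1500 UMIs, which left 931 of 1203 cells, and the number of cells with both genes was divided by the number that the 2 genes' own shares would give. Cldn10 with Cldn16 came to 0.716 over the 5 libraries, and to 0.607 in the control, 0.712 and 0.988 in AKI, and 0.775 and 0.511 in CKD. All 5 values lay below 1, that of AKI 2 by less than the spread between libraries (SD 0.181). Cldn10 with Cldn19 came to 1.28, with all 5 libraries above 1, and Cldn16 with Cldn19 to 1.07, with all 5 at or above 1.

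The order of the 3 pairs depended on depth. Thinned to 5000 UMIs, a depth chosen after the data were seen, the ratios were 0.776, 1.07 and 1.01, so that Cldn10 with Cldn16 stayed below 1 in all 5 libraries (0.726 to 0.887) while Cldn16 with Cldn19 moved to 0.973 to 1.03. Without thinning all 3 pooled ratios exceeded 1 (1.12, 1.31 and 1.47). At 1500 UMIs, Cldn16 was seen in 11.6% to 23.9% of TAL-like cells per library (34.2% to 45.2% unthinned), while T lymphocyte-like cells held it in 0.0261% to 0.638% (0.234% to 1.33% unthinned). TAL-like cells had a median depth of 3261 to 6161 UMIs per library, and the lymphocytes one of 3257 to 5717.

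**Figure D2:**
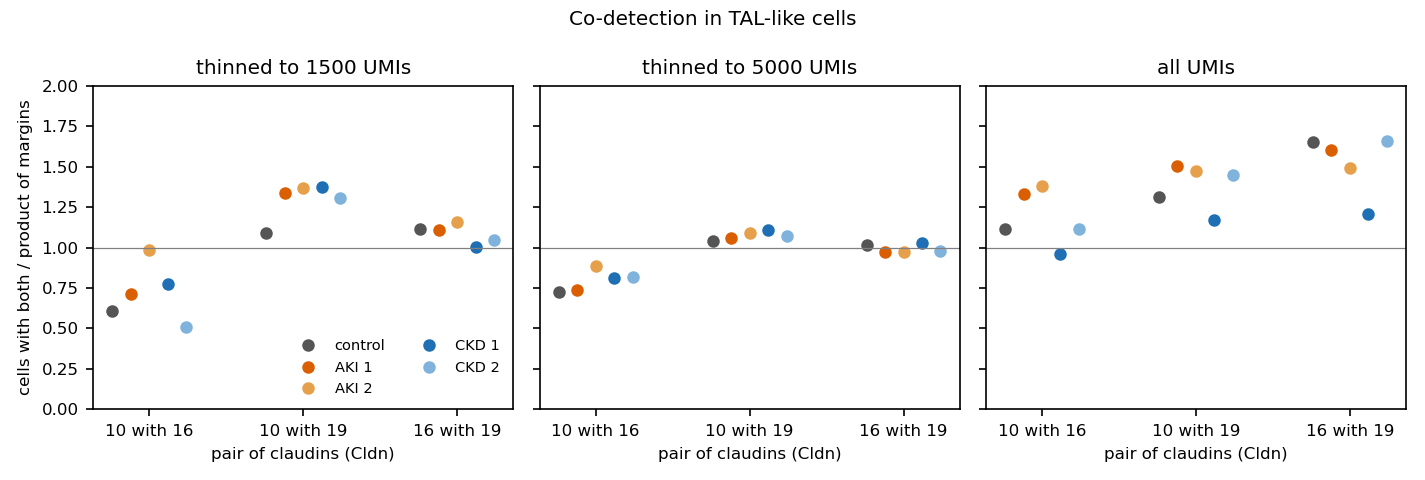
Cells with UMIs of both claudins over the number given by the product of their shares, in TAL-like cells, per library, at 1500 UMIs, 5000 UMIs and unthinned; the grey line marks 1. Cldn10 with Cldn16 lies below 1 in all libraries at 1500 and 5000 UMIs (0.716 and 0.776 over all 5) and above 1 in 4 of 5 when unthinned.

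Thin limb-like cells (647 in all, 30 to 307 per library) held 2 clusters with different claudins. The larger was led by Slc14a2, which encodes urea transporter UT-A, and the smaller by Fst, which encodes follistatin. In the Slc14a2-led cluster Cldn4 stood at 7.004 in the control, 10.6 and 9.08 in AKI, and 4.58 and 10.6 in CKD. In the Fst-led cluster Cldn4 was at 0 in the control (which allows up to 0.0911) and at 0.0581 to 0.742 elsewhere, below the other cluster in every library. Cldn3, Cldn7 and Cldn8 were likewise higher in the Slc14a2-led cluster in all 5 libraries.

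Cldn2 went the other way. The Fst-led cluster held 3.74 in the control, 1.89 and 2.69 in AKI, and 1.73 and 2.96 in CKD, and the Slc14a2-led cluster 0.449 to 1.25. Cldn19 did not separate them, at 0.901 to 1.83 in the first and 0.725 to 1.89 in the second. Aqp2, the water channel of principal cells, was at 0.0563 to 0.819 in thin limb-like cells and at 62.4 to 114 in CD PC-like cells. Since the clusters were cut from the same cells, these levels are a description without a test.

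**Figure D3:**
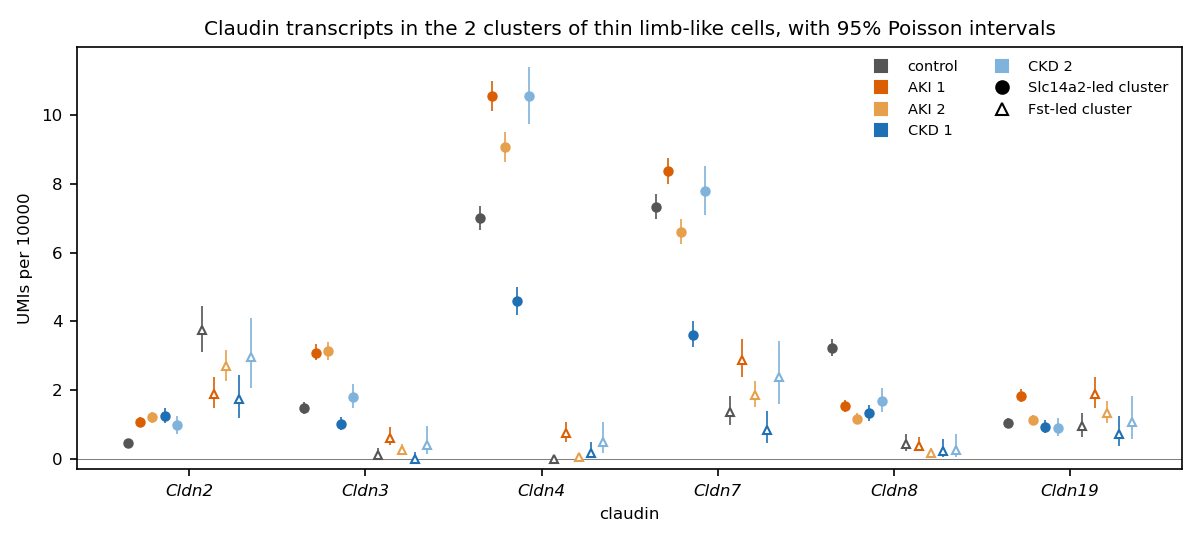
UMIs per 10000 of 6 claudins in the Slc14a2-led (filled circles) and Fst-led (open triangles) thin limb-like clusters, 1 point per library with its 95% Poisson interval. Cldn4, Cldn7, Cldn3 and Cldn8 are higher in the Slc14a2-led and Cldn2 in the Fst-led cluster in all 5 libraries, while Cldn19 overlaps.

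Cldn3, Cldn4, Cldn7 and Cldn8 are claudins of the distal nephron. Cldn3 is a barrier claudin, Cldn4 and Cldn8 work together in the chloride route of the collecting duct, where Cldn8 brings Cldn4 to the junction, and Cldn7 is also found along the lateral membrane. Cldn4 was highest in thin limb-like (7.09 pooled), CD PC-like (5.69) and urothelium-like cells (4.06), and Cldn7 in thin limb-like (6.15) and CD PC-like cells (5.05), all with overlapping library ranges. Cldn8 was highest in CD PC-like (4.41), type A IC-like (3.73) and CNT-like cells (2.65), where the type A range overlapped both others and the CD PC and CNT ranges did not overlap. Cldn3 was highest in the Slpi-led cluster (2.53) and in CD PC-like cells (2.08). PT-like cells lay within 3 times the T lymphocyte-like level for all 4 genes.

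Cldn3 and Cldn4 are neighbours on mouse chromosome 5, on opposite strands, with starts 39280 bases apart in GRCm38.p6 (Cldn3 at chr5:134986214-134987476, plus strand, and Cldn4 at chr5:134945123-134946934, minus strand). Because these 2 genes moved together in the data below, their RefSeq promoters, 250 bases before to 50 after the start, are shown 5′ to 3′ on the gene's strand, at chr5:134985964-134986263 and chr5:134946885-134947184. Capitals mark TGANTCA, the motif of AP-1, a stress-activated transcription factor family, searched on both strands.
Cldn3 promoter: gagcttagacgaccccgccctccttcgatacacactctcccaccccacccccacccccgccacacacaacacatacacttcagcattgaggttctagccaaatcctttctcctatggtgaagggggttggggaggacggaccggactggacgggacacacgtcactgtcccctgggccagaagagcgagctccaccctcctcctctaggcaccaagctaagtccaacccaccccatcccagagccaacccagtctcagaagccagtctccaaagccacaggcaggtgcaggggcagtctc
Cldn4 promoter: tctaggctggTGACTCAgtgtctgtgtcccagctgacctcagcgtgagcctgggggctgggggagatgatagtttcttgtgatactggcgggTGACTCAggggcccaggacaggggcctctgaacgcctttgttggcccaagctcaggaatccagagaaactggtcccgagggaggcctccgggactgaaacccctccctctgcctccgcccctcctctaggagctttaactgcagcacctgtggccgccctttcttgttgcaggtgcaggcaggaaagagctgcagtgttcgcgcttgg
The Cldn4 window held 2 matches, 240 and 158 bases before the start, and the Cldn3 window none. Only the first listed promoter of each gene was searched, so the 2nd entries of Cldn7, Cldn10 and Cldn19 were not. Of 27025 promoters of this length, 7.93% held at least 1 match and 0.440% held 2 or more. The searched promoters of the other 6 members with an entry held none. The E-box CACCTG matched the Cldn4 window 14 bases before and 11 bases after the start, and the Cldn3 window 31 bases after it. Of all promoters, 20.03% held at least 1 E-box match and 2.85% held 2 or more. The motif AACCNGTT of grainyhead-like factors was in none of the 8 member promoters searched and in 2.01% of all. A match is a stretch of letters and shows no binding.

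The 7 classes with at least 20 cells in every library were tested on UMIs summed per library, by the quasi-likelihood test of edgeR, and p-values were adjusted over all genes of a class (Benjamini-Hochberg). Of 63 member and class combinations, 49 passed the filter on low counts, and all counts below are of these. AKI against control called 15 higher and 1 lower (false discovery rate 0.05). Of all gene and class tests, 4.51% were called higher, 3.33% lower and 7.84% in either direction. At an unadjusted p under 0.05 stood 27 of the 49. Shares of all genes, here and below, are of adjusted calls unless stated. They are therefore no scale for counts at an unadjusted p. Where no share of all genes at that p is given, such counts are not read as a result about the members. The median log2 fold change of the 49 was 0.60, while the class medians over all tested genes lay between −0.02 and 0.01. Cldn3 and Cldn4 made up 10 of the 15, each called higher in TAL-like, DCT-like, CNT-like, CD PC-like and pendrin-positive IC-like cells.

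DCT-like cells (937 in all, 47 to 467 per library) showed the largest fitted changes of both genes. Cldn4 stood there at 0.146 UMIs per 10000 in the control, 3.84 and 4.78 in AKI, and 1.10 and 1.76 in CKD, and Cldn3 at 0.162, then 1.28 and 1.68, then 0.340 and 0.287. For both genes the control was lowest, both AKI libraries were highest, and both CKD libraries lay between, with no overlap. Cldn4 rose by 4.74 ± 0.38 (SE, log2, 26.8-fold, edgeR adjusted p = 1.11e-07) and Cldn3 by 3.05 ± 0.31 (8.28-fold, adjusted p = 1.12e-06). Cldn4 in DCT-like cells was 4.65% of its CD PC-like level in the control, 43.4% and 77.1% in AKI, and 17.4% and 24.8% in CKD.

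The share of DCT-like cells with a Cldn4 UMI, thinned to 1500 UMIs, was 3.06% in the control, 33.8% and 30.2% in AKI, and 17.4% and 14.8% in CKD. The exact binomial 95% intervals of the control (1.41% to 5.73%) and of the AKI libraries (23.6% to 45.2% and 19.2% to 43.0%) did not overlap. Unthinned shares were 7.71%, 36.1%, 39.2%, 29.8% and 27.7%, and T lymphocyte-like cells held 0.418% to 3.13% thinned and 1.79% to 7.67% unthinned. The intervals cover counting error only.

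In the same DCT-like sums the 7 injury markers summed to 2.08 in the control, 31.0 and 46.0 in AKI, and 12.9 and 39.0 in CKD. They moved with Cldn3 and Cldn4 into AKI, but Krt18, 1 of the 7, was also the gene most like Cldn4 over all sums (0.947). Lcn2, a secreted marker of stressed tubule, stood at 28.3 in CKD 2, where Cldn4 was at 1.76. Summed CD PC markers stayed at 1.66 to 3.94, against 167 to 223 in CD PC-like cells. Summed TAL markers were 109 in the control, 65.6 and 33.8 in AKI, and 95.3 and 71.5 in CKD. The class's own summed DCT markers were 109.9 in the control, 46.5 and 43.6 in AKI, and 53.3 and 41.3 in CKD. Both DCT clusters showed the AKI difference: Cldn4 was 0.415, 2.66 and 2.21 in the control and AKI libraries of the shallow cluster, and 0.0925, 4.03 and 5.31 in the deeper one. The part of any of these in the result was not tested.

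Of 7 tested members, DCT-like cells had 4 called higher in AKI, beside 8.86% of all genes. The other 2 were Cldn7 and Cldn19. Cldn7 read 1.11, then 2.72 and 3.41, then 1.49 and 2.68 (1.34 ± 0.32, edgeR adjusted p = 0.00566), and its call was lost without AKI 2 (adjusted p = 0.0650). Cldn19 read 0.0847, then 0.541 and 0.363, then 0.495 and 0.191 (2.32 ± 0.42, adjusted p = 0.000547), with T lymphocyte-like cells at 0.0701 in the control. The Cldn3, Cldn4 and Cldn19 calls held in every alternative in which DCT-like cells could be fitted.

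**Figure D4:**
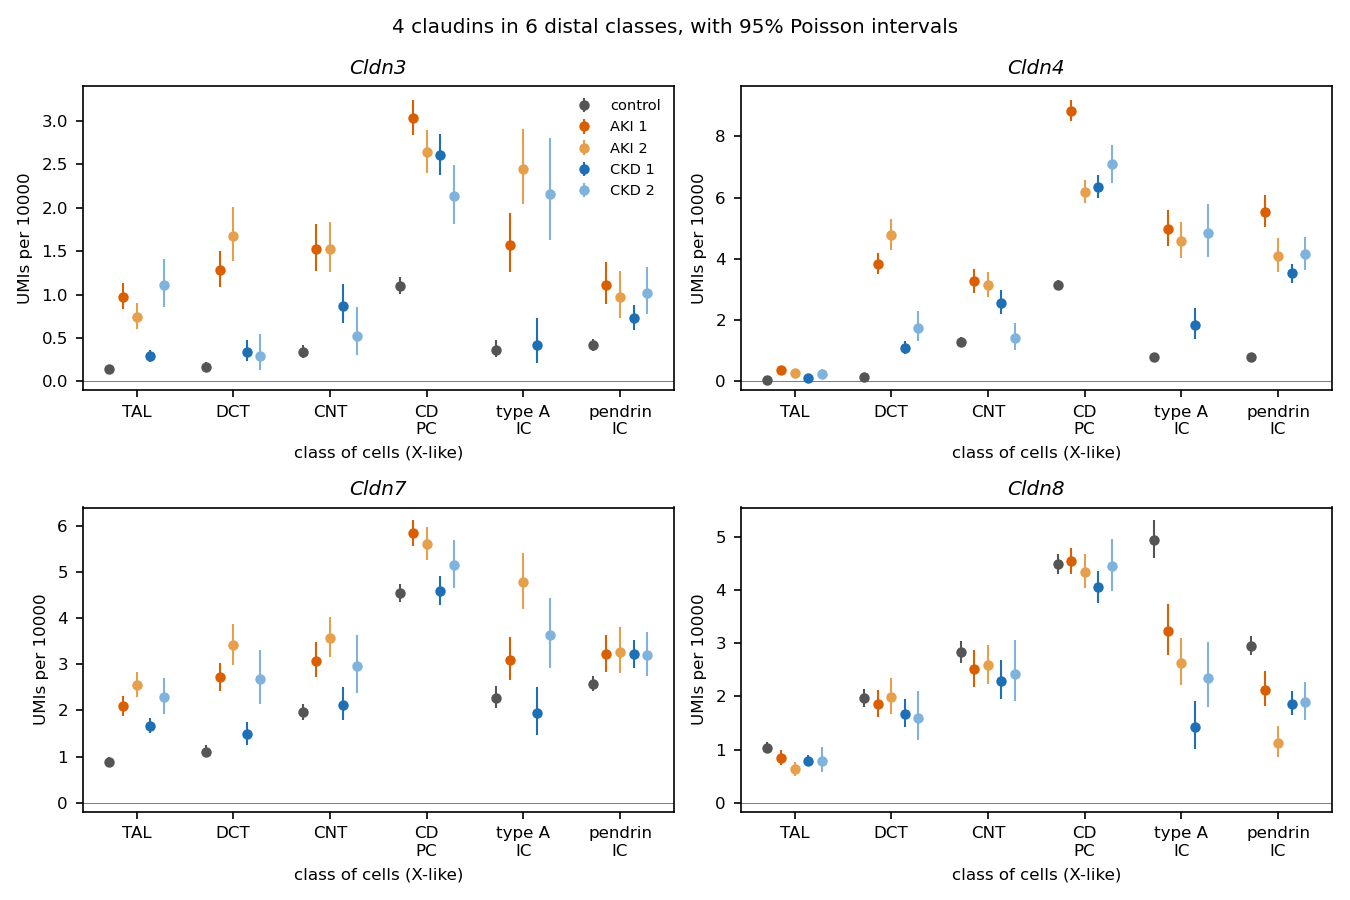
UMIs per 10000 of Cldn3, Cldn4, Cldn7 and Cldn8 in 6 distal classes, 1 point per library with its 95% Poisson interval. In DCT-like cells Cldn4 goes from 0.146 in the control to 3.84 and 4.78 in AKI and back to 1.10 and 1.76 in CKD, while Cldn8 in CD PC-like cells stays between 4.05 and 4.54.

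TAL-like cells had 4 of 8 tested members called higher in AKI, beside 5.91% of all genes. Cldn3 read 0.145 in the control, 0.972 and 0.742 in AKI, and 0.286 and 1.11 in CKD (2.47 ± 0.47, edgeR adjusted p = 0.00111). Cldn4 read 0.0307, then 0.368 and 0.267, then 0.117 and 0.248 (3.26 ± 0.46, adjusted p = 5.12e-05). All 4 AKI and CKD libraries lay above the control for both genes, as did summed injury markers (1.20 in the control, 20.01 to 36.3 elsewhere). The pooled Cldn4 level was under 3 times that of T lymphocyte-like cells, which themselves read 0.0662 in the control and 0.172 and 0.0737 in AKI.

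Cldn7 in TAL-like cells read 0.879, then 2.09 and 2.54, then 1.67 and 2.29 (1.30 ± 0.26, edgeR adjusted p = 0.00213). The control was again the lowest library. With cells of at most 15% mitochondrial UMIs the TAL calls of Cldn3, Cldn4 and Cldn7 were lost (adjusted p = 0.0522, 0.0896 and 0.0896) at log2 changes of 3.19, 3.35 and 1.37. Those of Cldn3 and Cldn7 were also lost with cells assigned by marker UMIs (0.0609 and 0.101), and that of Cldn3 under DESeq2 (0.270). Cldn1 rested on 3 control UMIs in TAL-like cells, against 28 in both AKI libraries together, a ratio of 10.7 (95% exact interval 3.30 to 55.0), and its call (adjusted p = 0.0362) was lost without AKI 2 (0.183) and under DESeq2 (0.30).

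CNT-like cells (27 to 275 per library) had 2 of 5 tested members called, beside 2.22% of all genes. Cldn3 read 0.340, then 1.52 and 1.53, then 0.871 and 0.526 (2.03 ± 0.28, edgeR adjusted p = 0.000248). Cldn4 read 1.29, then 3.26 and 3.15, then 2.57 and 1.41 (1.18 ± 0.29, adjusted p = 0.0288). The AKI pair was highest for both, and CKD 2 came close to the control for Cldn4 and for summed injury markers (3.86 in the control, 18.5 and 22.3 in AKI, 12.0 and 5.19 in CKD). Without AKI 1 both calls were lost (adjusted p = 0.306 and 0.784), and without AKI 2 that of Cldn4 was lost (0.371). Both were lost with cells assigned by marker UMIs (0.423 and 0.419), and that of Cldn4 under DESeq2 (0.213).

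CD PC-like cells (29 to 416 per library) had 2 of 8 tested members called, beside 2.77% of all genes. Cldn4 read 3.15 in the control, 8.84 and 6.20 in AKI, and 6.36 and 7.09 in CKD (1.31 ± 0.23, edgeR adjusted p = 0.0135). Cldn3 read 1.10, then 3.03 and 2.64, then 2.60 and 2.14 (1.42 ± 0.22, adjusted p = 0.00645). For both genes the control lay below the other 4 libraries, and AKI and CKD overlapped for Cldn4 but not for Cldn3. Summed injury markers in these cells read 21.0 in the control and 48.1 to 73.0 elsewhere. Both calls were lost when cells were assigned by their own marker UMIs in place of clusters (adjusted p = 0.174 for Cldn3 and 0.240 for Cldn4, at log2 changes of 1.16 and 1.23).

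Intercalated cells secrete acid or base. In the pendrin-positive, base-secreting class (21 to 223 cells per library), 2 of 4 tested members were called, beside 2.73% of all genes. Cldn4 read 0.797, then 5.55 and 4.10, then 3.52 and 4.16 (2.54 ± 0.25, edgeR adjusted p = 1.51e-05), and Cldn3 read 0.413, then 1.11 and 0.973, then 0.728 and 1.01 (1.28 ± 0.27, adjusted p = 0.0104). The control was below all other libraries for both, and also for summed injury markers (5.29, against 11.2 to 17.03). Both calls were lost at the 15% mitochondrial limit (adjusted p = 0.103 and 0.0710) and at the coarser clustering (0.0860 and 0.0720), and that of Cldn3 under DESeq2 (0.166). Type A, acid-secreting cells had only 15 cells in CKD 2 and were tested at a minimum of 15 cells, chosen after the data were seen. There Cldn4 read 0.787, then 4.99 and 4.59, then 1.83 and 4.86 (2.52 ± 0.45, adjusted p = 0.00196), and Cldn3 was also called (2.37 ± 0.51, adjusted p = 0.0108), where 2.51% of all genes were called.

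Cldn8 was called higher in none of the 7 classes. Its fitted AKI against control change was below 0 in 6 of the 7 (median log2 −0.57), with 4 at an unadjusted edgeR p under 0.05. In TAL-like cells it was not called in the main fit. It was called there with doublets kept, at 15% mitochondrial UMIs, with no library correction and at the coarser clustering. In CD PC-like cells it read 4.49 in the control, 4.54 and 4.35 in AKI, and 4.05 and 4.45 in CKD, with overlapping groups (0.04 ± 0.17 for AKI against control). Thin limb-like cells read 2.85, then 1.35 and 0.944, then 1.16 and 1.44, and pendrin-positive IC-like cells 2.95, then 2.13 and 1.12, then 1.86 and 1.89. The control was the highest library in both, and neither difference passed (−1.31 ± 0.27, edgeR adjusted p = 0.112, and −0.89 ± 0.27, adjusted p = 0.0912). With no filter on low counts both passed. The 1 lower call of the 16 was Cldn8 in PT-like cells (−2.29 ± 0.56, adjusted p = 0.0137). Its control level there, 0.127, was below the 0.191 of T lymphocyte-like cells in the control, so it is read as background.

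In PT-like cells 1 of 8 tested members was called higher, beside 8.48% of all genes, and 1 lower, beside 9.19%. The higher one was Cldn1, at 0.159 in the control, 0.370 and 0.408 in AKI, and 0.198 and 0.239 in CKD. The AKI pair was clear of the other 3 libraries (1.25 ± 0.25, edgeR adjusted p = 0.00484), but with cells assigned by marker UMIs the change was −0.05. Summed injury markers in PT-like cells read 1.21 in the control, 5.37 and 4.70 in AKI, and 2.14 and 1.96 in CKD. Thin limb-like cells had 0 of 9 members called by edgeR, beside 0.273% of all genes, with 4 at an unadjusted p under 0.05. DESeq2 called 1 there (Cldn10), beside 1.01% of all genes. Among them Cldn1 read 0.0250, then 0.191 and 0.305, then 0.0323 and 0.0564 (3.27 ± 0.56, adjusted p = 0.0841).

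**Figure D5:**
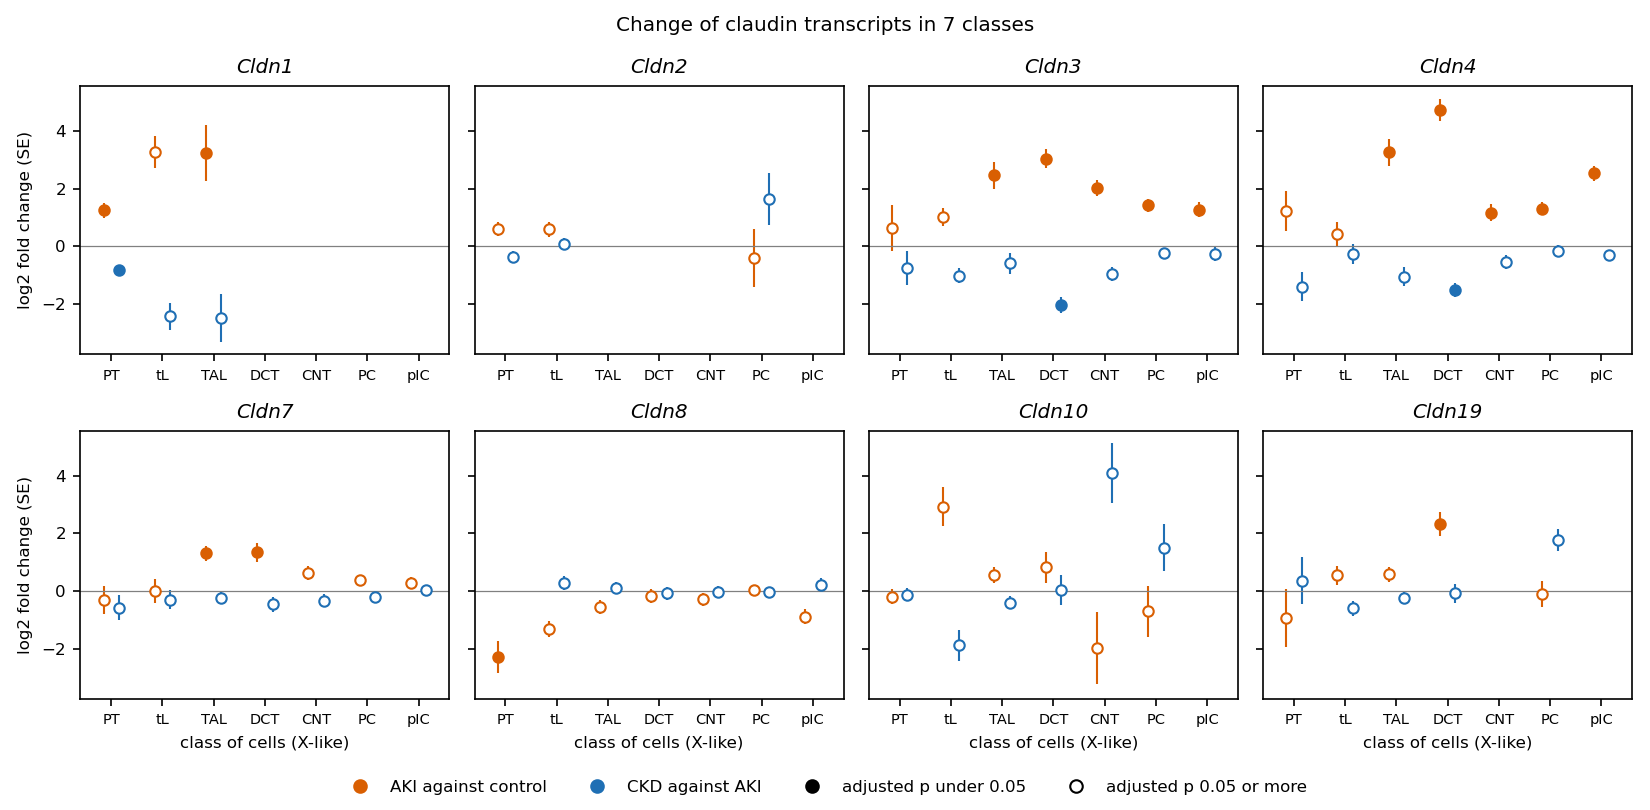
Fitted log2 fold changes with SE of 8 claudins in 7 classes (tL, thin limb-like; PC, CD PC-like; pIC, pendrin-positive IC-like) for AKI against control (orange) and CKD against AKI (blue), filled where the adjusted p is under 0.05; genes that failed the count filter have no point, and Cldn16 is not drawn. Cldn3 and Cldn4 are filled above 0 in 5 classes, with 4.74 for Cldn4 in DCT-like cells the highest, and only 3 blue points are filled.

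CKD against AKI asked which of these levels turned back after AAI was stopped. It called 3 of 49 tests, all lower, beside 0.269% of all tests called lower and 0.569% in either direction, with 14 of the 49 at an unadjusted p under 0.05. The median of the 49 was −0.26, against class medians over all genes of −0.01 to 0.02. The 3 were Cldn3 in DCT-like cells (−2.04 ± 0.28, edgeR adjusted p = 0.00161), Cldn4 in DCT-like cells (−1.51 ± 0.26, adjusted p = 0.00711) and Cldn1 in PT-like cells (−0.83 ± 0.18, adjusted p = 0.0341). All 3 had been called higher in AKI against control, with which this comparison shares its AKI libraries.

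In DCT-like cells the 2 calls stood beside 0.418% of all genes called lower, and the 1 call in PT-like cells beside 0.993%. That of Cldn4 was lost without AKI 2 (adjusted p = 0.0558, −1.31). That of Cldn1 in PT-like cells was lost in 7 alternatives: without AKI 2 (0.145) or CKD 1 (0.163), under DESeq2 (0.352), with doublets kept (0.171), at 15% mitochondrial UMIs (0.240), with no library correction (0.152) and with cells assigned by marker UMIs (0.118), while DESeq2 gave Cldn3 in DCT-like cells no adjusted p. CD PC-like cells had 0 of 8 members called (1 at an unadjusted p under 0.05), with −0.14 ± 0.18 for Cldn4 and −0.22 ± 0.17 for Cldn3, and 0.0% of all genes were called there.

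The difference of the CKD against AKI change between 2 classes was tested within the 4 AKI and CKD libraries, with the p adjusted over genes in each of 21 pairs of classes. In 78 tests both classes held at least 3 times the T lymphocyte-like level, and 4 of these were called. Of all genes, 0.0902% were called over the 21 pairs, 0.274% for DCT-like against CD PC-like and 0.181% for TAL-like against CD PC-like cells. At an unadjusted p under 0.05 stood 22 of the 78. Of all genes, 670 of 9494 did so for DCT-like against CD PC-like and 684 of 10519 for TAL-like against CD PC-like cells. The fall of Cldn3 in DCT-like cells exceeded that in CD PC-like cells by 1.86 ± 0.31 log2 units (edgeR adjusted p = 0.00725), and that of Cldn4 by 1.39 ± 0.28 (adjusted p = 0.0191). Without AKI 2 both were lost (0.104 and 0.849), and without CKD 1 that of Cldn4 was lost (0.0511).

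The other 2 calls were of Cldn19, which in CD PC-like cells read 0.151 in the control, 0.165 and 0.0903 in AKI, and 0.569 and 0.259 in CKD. Both CKD libraries lay above the other 3, though CKD against AKI alone did not pass in this class (1.77 ± 0.38, edgeR adjusted p = 0.440). It passed with no low-count filter (adjusted p = 1.33e-07), with the replicate number as a block (0.0337), without AKI 1 (4.68e-05) and without AKI 2 (0.0151), and was 0.94 without CKD 1 (0.829). The change in TAL-like cells was lower than that in CD PC-like cells by −2.05 ± 0.37 (adjusted p = 0.0194), and that in DCT-like cells by −1.95 ± 0.38 (adjusted p = 0.0167). Leaving out AKI 1, AKI 2 or CKD 1 ended both calls (adjusted p from 0.104 to 0.733). In CKD 1 the CD PC-like cluster found only in that library held 0.590, and the 2 shared clusters 0.191 and 0.75.

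The Slpi-led cluster (18 to 82 cells per library) held Cldn3 at 2.54 in the control, 1.70 and 8.47 in AKI, and 0.839 and 0.558 in CKD, and Cldn4 at 2.80, then 3.39 and 4.78, then 0.687 and 2.26. AKI 2 was the high library for both. Cldn7 read 4.07, then 2.10 and 5.43, then 0.973 and 0.801, and Cldn1 1.86, then 0.991 and 1.72, then 0.553 and 0.728. For all 4 genes both CKD libraries lay below the other 3. No share of all genes with this order is given, so it is not read as a result about claudins. At a minimum of 15 cells per library, edgeR called 0 of 8 tested members in either comparison and 0.0% of 7769 genes. At an unadjusted p under 0.05 stood 1 of the 8 for AKI against control (Cldn8) and 5 for CKD against AKI. No share of all genes at that p is given, so these counts are not read as a result about claudins. The log2 changes of CKD against AKI were −2.73 ± 0.71 for Cldn3 (adjusted p = 0.341), −1.96 ± 0.50 for Cldn7 (0.334), −1.39 ± 0.51 for Cldn4 (0.481) and −0.96 ± 0.41 for Cldn1 (0.516). Fewer UMIs of a gene in a summed cluster cannot be told apart from a changed mix of cells within it.

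Among 11 other claudins, 14 class tests passed the filter and 0 were called by edgeR in either comparison, 0 at an unadjusted p under 0.05. Cldn12 in PT-like cells, one of the claudins with a broad tissue range, had a log2 difference of −0.38 ± 0.24 between AKI and control (edgeR adjusted p = 0.307). Of 145 tests of 24 other tight junction genes, 9 were called higher and 1 lower in AKI against control, beside 4.51% and 3.33% of all gene and class tests. Pard6b, which encodes a polarity protein, rose by 1.96 ± 0.28 in DCT-like cells (edgeR adjusted p = 5.11e-05), and its CKD against AKI change there did not pass (−0.93 ± 0.25, adjusted p = 0.0940). The 1 lower call was of Cgnl1, which encodes the junction protein paracingulin, in TAL-like cells (−0.90 ± 0.27).

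In CKD against AKI, 15 of the 145 tests of the tight junction list had an unadjusted edgeR p under 0.05. No share of all genes at that p is given, so this count is not read as a result about the list. Median changes over that list were 0.15 for AKI against control and −0.13 for CKD against AKI.

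The genes most like each claudin were found by the Pearson correlation of log2 levels over 91 class and library sums, among 5556 genes. The sums share libraries and depth, so these are descriptions. Cldn7 was nearest to Cldn3 (0.900), and Krt18, an epithelial keratin that was also one of the class markers, nearest to Cldn4 (0.947), followed by Cldn7 (0.922). Nearest to Cldn7 were Epn3 (0.961) and Epcam (0.960), an adhesion protein that binds Cldn7. Nearest to Cldn8 was Tmem30b (0.941).

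Among the TAL claudins, Cldn16 was most like Slc5a1 (0.940), a glucose transporter, and Cldn19 most like Erbb4 (0.889), a growth factor receptor that was also near Cldn16 (0.835). Cldn10 was most like Slc9a3 (0.863), the sodium proton exchanger that PT and TAL share. Cldn2 was most like 1700016C15Rik (0.955) and Folr1 (0.937), the folate receptor of the proximal tubule, and Cldn1 most like Stc2 (0.8002). Over the 49 sums of the 11 epithelial classes, Cldn4 with Cldn7 was the closest pair of members (0.844) and Cldn1 with Cldn8 the most opposed (−0.774).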

How the data were processed

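The authors deposited raw UMI counts, by gene and barcode, of 5 droplet 3′ libraries (10x), 1 matrix per library. The labels name Cell Ranger 7.2.0, STAR and GRCm39, while the headers of the AKI and CKD matrices name an earlier Cell Ranger and the control's gene list names mm10, so a difference in gene model between the control and the others cannot be told apart from AKI against control. The study also used CellBender and scDblFinder, but the headers of the AKI and CKD matrices name only Cell Ranger, so the counts were treated as not corrected for free RNA.

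A barcode was kept as a cell if it held 200 or more genes and no more than 30% of its UMIs were mitochondrial. Doublets were removed by a nearest-neighbour score at 0.8% per 1000 cells. Cells were clustered in 2 rounds (3000 and 2000 variable genes, 40 and 30 components, 15 neighbours, library-corrected, Leiden resolution 1.5 for the epithelium), with claudins, tight junction genes and mitochondrial genes left out, and clusters were named from marker lists.

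UMIs were summed per class and library where every library had at least 20 cells, and tested in edgeR 4.0.16 under R 4.3.3 (TMM, quasi-likelihood fit, filterByExpr, 1 term for the 3 groups over 5 libraries, Benjamini-Hochberg, false discovery rate 0.05). Differences between classes were tested in the 4 AKI and CKD libraries with the library as a block. DESeq2 1.42.0 was an alternative. Clustering used Python 3.11.15, leidenalg 0.10.2 and scikit-learn 1.9.0. In counts simulated for CKD against AKI, 41% of 100 genes changed by 2-fold and 70% of 100 changed by 4-fold were recovered in TAL-like cells with 0 false calls among 10171 genes. In CNT-like cells 23% and 73% were recovered, with 6 false calls among 8094 genes. Promoters and gene positions are from RefSeq, build GRCm38.p6, and 8 of the 9 members had a promoter entry.

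All 9 members were measured in every class, and the text prints only part of these values. Of the 3 genes most correlated with each member (log2 of UMIs per 10000 plus 0.1), the text gives the first or more. Of the up to 3 lowest adjusted p-values of each list, it likewise gives a part. Other list genes that are named were chosen after their values were seen. The values of 1 gene of the tight junction list are not reported here. The members and lists were chosen with earlier results of these data known. The minimum of 15 cells, the limit of 2000 UMIs, the depth of 5000 UMIs and the leave-one-out fits between classes were added after the data were seen. Other alternatives were the normalization, the low-count filter, doublets kept, a 15% mitochondrial limit, no library correction, resolution 0.8, cells assigned by their own marker UMIs, control cells sharing barcodes removed, the replicate block and each AKI or CKD library left out.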

Additional observations from a re-analysis of the deposited data

Results flagged for a closer look

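Between classes, 4 differences of the CKD against AKI change passed their own test (edgeR quasi-likelihood, adjusted over genes within a pair of classes and not over the 21 pairs). The log2 change of Cldn3 in DCT-like minus CD PC-like cells was −1.86 ± 0.31 (SE), and that of Cldn4 was −1.39 ± 0.28. For Cldn19 the difference was −2.05 ± 0.37 in TAL-like minus CD PC-like cells and −1.95 ± 0.38 in DCT-like minus CD PC-like cells. Each rests on 2 AKI and 2 CKD libraries. Without AKI 2, all 4 missed the threshold (edgeR adjusted p = 0.104, 0.849, 0.400 and 0.104 in the order above). Without CKD 2 all 4 passed.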

How the results depend on the processing

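Over the log2 fold changes of members that were called, stood at 1 UMI per 10000 or more in their class, or are given in the text, 707 values under the alternatives kept direction and side of the threshold, 33 no longer passed, 16 came to pass and 27 changed sign. The cause was not tested. The control has no replicate, and some classes had under 30 cells in a library.

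For CKD against AKI, the 3 calls among members became 1 with DESeq2 (Cldn3 in DCT-like cells had no adjusted p there), 10 with no filter on low counts, 0 with cells assigned by marker UMIs, where DCT-like cells could not be fitted, and 3 to 10 with 1 library left out (10 without CKD 2, 5 without CKD 1). Over all genes 405 calls became 213, 1454 and 227 under the first 3 of these, 265 at 15% mitochondrial UMIs, and 351 to 1613 with 1 library left out. For AKI against control, the 16 calls became 12 with DESeq2, of which 11 were among the 16. They became 10 at 15% mitochondrial UMIs (14 of the 16 fitted, 8 kept) and 3 with marker UMIs (10 fitted, 2 kept). The other call with marker UMIs was Cldn19 in cells assigned by their injury marker UMIs, a set of cells other than the Slpi-led cluster. Over all genes 5577 calls became 2281 with DESeq2, 3126 at 15% mitochondrial UMIs, 905 with marker UMIs, and 3559 to 4641 with 1 AKI library left out. The 4 differences between classes became 1 to 13 (1 without AKI 2, 8 without CKD 1, 13 without CKD 2).

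In the 4 libraries without the control, CKD against AKI gave 3 calls among members and 291 over all genes with no block, and with the replicate number as a block 6 calls, the same 3 and 3 more (Cldn4 in PT-like, Cldn10 in thin limb-like and Cldn19 in CD PC-like cells), and 895 over all genes. The labels do not say that the numbers pair libraries, and same-numbered deviations correlated from −0.43 to 0.37 by class over 2 pairs.

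Of 441 levels, 273 stayed within their interval at 15% mitochondrial UMIs and 218 with marker UMIs. In TAL-like cells the co-detection ratio was 1.12 for Cldn10 with Cldn16 and 1.47 for Cldn16 with Cldn19 unthinned, and 1.07 for Cldn10 with Cldn19 at 5000 UMIs.

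The changed signs were, with marker UMIs, −0.0522 for Cldn1 in PT-like cells and −0.0788 for Cldn7 in thin limb-like cells (AKI against control), and −0.47 for Cldn2 in thin limb-like and −0.44 for Cldn16 in TAL-like cells (CKD against AKI). At 15% mitochondrial UMIs they were 0.30 for Cldn8 in DCT-like and −0.00047 in CD PC-like cells (AKI against control), and −0.69 for Cldn7 and −0.24 for Cldn8 in pendrin-positive IC-like cells (CKD against AKI). At resolution 0.8 the last 2 were −0.65 and −0.31. With doublets kept, Cldn8 in CD PC-like cells was −0.0203 (AKI against control) and Cldn7 in pendrin-positive IC-like cells −0.0689 (CKD against AKI). With no library correction, Cldn7 there was −0.0801 and Cldn8 in DCT-like cells 0.0252 (CKD against AKI). With 1 library left out, the CKD against AKI change ranged from −0.51 to 0.14 for Cldn10 in PT-like cells, and in thin limb-like cells from −0.0854 to 0.24 for Cldn2, −0.86 to 0.16 for Cldn4 and −0.85 to 0.10 for Cldn7. It ranged from −0.27 to 0.21 for Cldn16 in TAL-like cells, from −0.38 to 0.15 for Cldn4 in CD PC-like cells, and in pendrin-positive IC-like cells from −0.0125 to 0.0628 for Cldn7 and −0.17 to 0.81 for Cldn8. The AKI against control change ranged from −0.23 to 0.21 for Cldn7 in thin limb-like and from −0.0691 to 0.27 for Cldn16 in TAL-like cells. Of these 27 values, the called one was Cldn1 in PT-like cells.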

Other observations

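Among the clusters that matched no class and entered no test was 1 of 305 epithelial cells led by Pappa2, Eprn and Nos1. Its Cldn10 stood at 3.62 UMIs per 10000 in the control, 6.34 and 5.05 in AKI, and 4.81 and 3.79 in CKD. Cldn16 stood at 0.553 in the control and at 1.16 to 1.56 elsewhere, and Cldn19 at 0.444 and at 1.94 to 3.00. Cldn3 stood at 0.489 in the control, 3.24 and 4.11 in AKI, and 0.754 and 2.20 in CKD, and Cldn4 at 0.190, then 2.98 and 2.80, then 0.408 and 2.16. Cldn8 was highest in the control, at 1.5, and stood at 0.486 to 0.691 elsewhere. These are values from 18 to 148 cells per library, given without a test.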
